A study of Saccharomyces cerevisiae with 4 samples.

Results

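The 34 genes described here bear the names of yeast proteasome genes and include RPN4, which encodes their transcription factor. They were taken from the array annotation by name, as probe sets (groups of array probes against 1 transcript) that named exactly 1 gene called RPN, RPT, PRE or PUP with a number, together with SCL1, out of 5656 genes that could be compared. Of these 34, 14 encode the core particle, 18 encode the regulatory particle, and RPN4 and RPN14 encode proteins that are not stable subunits. SEM1, for a further regulatory particle subunit, has no name of this form and is counted below with the assembly and accessory factors. RNA came from pmt1 pmt2 cells of the SEY6210 background (2 arrays) and from wild type SEY6210 cells (2 arrays), each array from its own biological sample. All cultures were grown overnight, diluted to an optical density of 0.1, grown to 0.45 and kept growing for 3 hours, and the labels name no treatment of either group. The sources used here do not give the nature of the pmt1 and pmt2 alleles.

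The proteasome degrades proteins that carry ubiquitin chains. Its core particle is a barrel of stacked alpha and beta rings with the protease sites on the inside of the beta rings, and its regulatory particle caps the barrel with a base, whose ring of ATPases unfolds substrates, and a lid, which removes ubiquitin. In budding yeast the genes of both particles are under the transcription factor Rpn4, which is itself a short-lived substrate of the proteasome, so that impaired degradation is known to raise Rpn4 and with it the subunit transcripts. PMT1 and PMT2 encode mannosyltransferases of the endoplasmic reticulum, where misfolded proteins are exported to the cytosol and destroyed by the proteasome. The comparison therefore asks whether the transcripts of the degradation machine differed in cells mutated for both enzymes.

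The arrays matched their genotype labels. PMT2 gave signals of 11.9 and 15.5 on the pmt1 pmt2 arrays, against 2645.5 and 2770.8 on the wild type arrays, and PMT1 gave 111.4 and 103.8 against 1177.7 and 808.7. Both passed limma (adjusted p = 0.00309 for PMT2 and 0.0382 for PMT1), although PMT1 had an adjusted p = 0.187 without pmt1 pmt2 array 1 and 0.242 without pmt1 pmt2 array 2. PMT2 had an adjusted p = 0.0591 without pmt1 pmt2 array 1. Of the 5 a-cell genes listed, STE2, BAR1 and STE6 lay below the background signal of 26.2 on every array. MFA1 and MFA2 gave at most 126.4, while all 4 alpha-cell genes gave at least 732.1. MFA1 overlapped between the genotypes, but MFA2 gave 12.1 and 20.5 in pmt1 pmt2, against 126.4 and 96.0 in wild type. SAG1, an alpha-cell gene, gave 2362.3 and 1888.4 in pmt1 pmt2, against 5518.0 and 4088.2 in wild type. Neither passed limma (adjusted p = 0.0836 for MFA2 and 0.502 for SAG1). With the array number as a block MFA2 passed (limma adjusted p = 0.00825), as did 3.02% of all genes. The arrays numbered 1 and 2 differed in RNA or labelling quality as the actin control probe sets show it. The probe set for the tail end of actin exceeded that for its start by a ratio of 3.15 on pmt1 pmt2 array 1 and 2.99 on wild type array 1, but 1.32 on pmt1 pmt2 array 2 and 1.38 on wild type array 2. Array medians were 54.4 and 66.1 for pmt1 pmt2 and 59.8 and 55.3 for wild type.

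No proteasome gene passed the test for a change with genotype. Of the 34 genes, 0 were higher and 0 lower in pmt1 pmt2 by limma at an adjusted p under 0.05, and 0 had an unadjusted p under 0.05. Over all genes 0.389% passed the adjusted test (0.283% higher and 0.106% lower) and 7.18% the unadjusted one. With the array number as a block, 0 of the 34 passed, beside 3.02% of all genes. The adjusted p of the 34 lay between 0.994 and 0.996. The median log2 change of the 34 genes, pmt1 pmt2 minus wild type, was 0.042, beside 0.027 for all genes. Single changes ran from -0.33 for RPT4 to 0.36 for RPT3, and 20 genes were above 0 and 14 below. None of the 34 was more than 1.5-fold apart, a bound chosen after the values were seen, whereas 23.2% of all genes and 20.6% of the 3539 genes with a mean log2 signal of at least 6 were. Every one of the 34 was above background on all 4 arrays, with signals from 44.4 to 1043. In bulk RNA, fewer cells that transcribe a gene and less transcript per cell cannot be told apart.

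A change that misses the threshold is not thereby absent, and the intervals show what 2 arrays per group could still hold. The standard error of the log2 change was 0.34 to 0.52 over the 34 genes. The 95% interval lay within a 2-fold change in both directions for 11 of the 34. Over all genes it did so for 12.2%, and for 14.3% of those with a mean log2 signal of at least 6. For the remaining 23 of the 34 it reached past 2-fold on at least 1 side. The widest reach was 2.63-fold higher for RPT5 and 0.399 of the wild type level for PUP1. With the array number as a block, 33 of the 34 intervals lay within 2-fold, beside 3074 of 5656 over all genes. The labels do not pair the samples by that number. For any 1 gene, an exact permutation test over 2 against 2 arrays cannot go below p = 0.333.

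**Figure D1:**
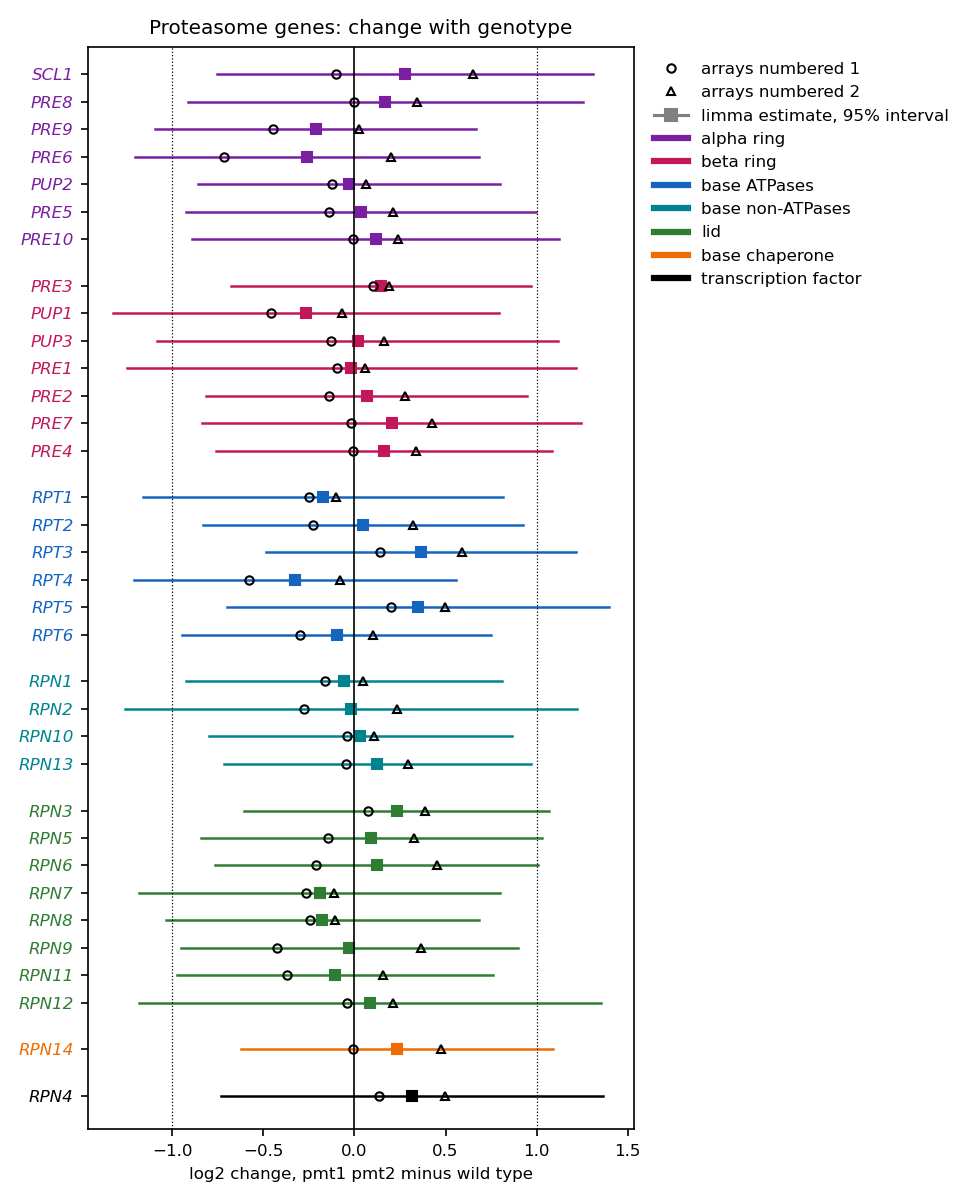
Log2 change of each of the 34 proteasome genes, pmt1 pmt2 minus wild type. Squares are limma estimates with 95% intervals (n = 2 arrays per group), open circles and triangles are the changes within the arrays numbered 1 and 2, dotted lines mark a 2-fold change. Every interval includes 0, and all estimates lie between -0.33 and 0.36.

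RPN4 encodes the transcription factor, whose protein level the arrays do not measure. Its transcript gave signals of 97.8 and 172.1 on the pmt1 pmt2 arrays, against 89.2 and 122.1 on the wild type arrays. The groups overlapped, because the first pmt1 pmt2 array lay between the wild type arrays. Means were 135 ± 52.5 in pmt1 pmt2 and 106 ± 23.3 in wild type (SD, n = 2 each), a 1.24-fold ratio with an interval from 0.601 to 2.57 (log2 change 0.31 ± 0.43 (SE), limma adjusted p = 0.994). The log2 change was 0.13 within the arrays numbered 1 and 0.50 within those numbered 2. Without pmt1 pmt2 array 2 it was -0.09, and without pmt1 pmt2 array 1 it was 0.72, so its direction depended on 1 array. RPN14, which encodes a chaperone that helps assemble the ATPase base, had a 1.18-fold ratio with an interval from 0.650 to 2.13. It measured 51.6 and 61.8 in pmt1 pmt2, against 51.9 and 44.4 in wild type, again with overlapping groups (log2 change 0.23 ± 0.35 (SE), limma adjusted p = 0.994).

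The alpha ring forms the outer gates of the core particle. Its 7 genes had a median log2 change of 0.037, with 4 above 0 and 3 below, and the groups overlapped in all 7. PRE6 gave 492.1 and 721.1 in pmt1 pmt2, against 809.0 and 628.0 in wild type. SCL1 gave 180.2 and 332.6 in pmt1 pmt2, against 193.3 and 211.5 in wild type. In both genes the change had opposite signs within the array numbers, at -0.72 and 0.20 for PRE6 and -0.10 and 0.65 for SCL1. PRE9, the alpha gene that yeast can live without, gave 359.7 and 364.9 in pmt1 pmt2, against 490.6 and 358.7 in wild type. PRE8 gave 567.6 and 1035.8 in pmt1 pmt2, against 567.9 and 817.6 in wild type. The PRE8 signals on the arrays numbered 1 were thus nearly equal, and its highest lay on pmt1 pmt2 array 2. The other 3 genes, PRE10, PRE5 and PUP2, had log2 changes of -0.031 to 0.12.

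The beta ring holds the catalytic subunits, encoded by PRE3, PUP1 and PRE2. The 7 beta genes had a median log2 change of 0.067, with 5 above 0. PRE3, for the caspase-like site, gave 725.5 and 751.9 in pmt1 pmt2, against 676.3 and 659.1 in wild type. It was the only beta gene whose groups did not overlap, at a 1.11-fold ratio that did not pass limma (log2 change 0.15 ± 0.34 (SE), adjusted p = 0.994). PUP1, for the trypsin-like site, went the other way, with 331.3 and 594.9 in pmt1 pmt2, against 455.1 and 624.5 in wild type. PRE2, for the chymotrypsin-like site that proteasome inhibitors chiefly target, gave 741.1 and 1011.8 in pmt1 pmt2, against 817.4 and 836.3 in wild type. It is named here outside the rule for named genes, after its values were seen, to complete the catalytic set. The 3 catalytic genes had log2 changes of 0.15, -0.26 and 0.067 in the order given first. Each was smaller than its SE (0.34, 0.43 and 0.36), so none of the 3 directions was established. PRE7 gave 270.4 and 480.6 in pmt1 pmt2, against 273.6 and 357.8 in wild type. PRE4 gave 706.1 and 1043.0 in pmt1 pmt2, against 711.0 and 826.7 in wild type. In both, pmt1 pmt2 array 2 was the highest of the 4 and the arrays numbered 1 were nearly equal. PUP3 and PRE1 had log2 changes of 0.017 and -0.018.

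The base ATPases showed the widest spread within the complex. RPT3, one of the ATPases whose tails dock into the core particle, gave 161.7 and 184.5 in pmt1 pmt2, against 146.7 and 122.7 in wild type. RPT4 gave 161.7 and 222.0 in pmt1 pmt2, against 241.2 and 234.1 in wild type. These neighbours in 1 hexameric ring were at the opposite ends of the list, each with groups that did not overlap, and neither passed limma (log2 change 0.36 ± 0.35 (SE) for RPT3 and -0.33 ± 0.36 for RPT4, adjusted p = 0.994 for both). RPT5, another docking ATPase, gave 183.9 and 317.7 in pmt1 pmt2, against 159.9 and 225.0 in wild type. RPT1 gave 343.2 and 528.0 in pmt1 pmt2, against 407.4 and 565.6 in wild type. The change kept its sign within both array numbers in these 4 ATPases, upwards in RPT3 and RPT5 and downwards in RPT4 and RPT1. Over all genes, 31.9% were higher and 31% lower within both numbers. For RPT5 the sign on the arrays numbered 1 depended on the probe set, as given below. RPT2 and RPT6 had opposite signs within the numbers and log2 changes of 0.046 and -0.098. The median of the 6 ATPases was -0.026.

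The other base subunits are the scaffolds RPN1 and RPN2 and the ubiquitin receptors RPN10 and RPN13. RPN13 gave 552.6 and 657.4 in pmt1 pmt2, against 569.5 and 535.8 in wild type. RPN1 gave 240.5 and 310.3 in pmt1 pmt2, against 268.9 and 300.1 in wild type. RPN10 gave 497.8 and 562.8 in pmt1 pmt2, against 511.5 and 523.2 in wild type. All 3 had overlapping groups and log2 changes between -0.056 and 0.13. RPN2 gave 731.0 and 466.4 in pmt1 pmt2, against 884.0 and 396.1 in wild type. It was lower on the arrays numbered 2 of both genotypes, at 0.638 of array 1 in pmt1 pmt2 and 0.448 in wild type, while its genotype ratio was 0.987.

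The lid carries the deubiquitylating enzyme encoded by RPN11, and its 8 genes had a median log2 change of 0.029 with 4 above 0 and 4 below. RPN3, a structural lid subunit, gave 262.8 and 286.5 in pmt1 pmt2, against 249.6 and 219.0 in wild type. Its groups did not overlap, and at a 1.17-fold ratio it did not pass limma (log2 change 0.23 ± 0.34 (SE), adjusted p = 0.994). RPN8, for the inactive partner of Rpn11, gave 195.0 and 172.8 in pmt1 pmt2, against 231.0 and 186.1 in wild type. RPN7 gave 240.9 and 372.6 in pmt1 pmt2, against 290.1 and 403.1 in wild type. RPN8 and RPN7 were lower in pmt1 pmt2 within both array numbers, with overlapping groups. RPN6, whose product bridges the lid and the core particle, gave 305.4 and 367.4 in pmt1 pmt2, against 352.9 and 268.1 in wild type. RPN11 itself, with RPN5, RPN9 and RPN12, had a log2 change between -0.11 and 0.092.

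**Figure D2:**
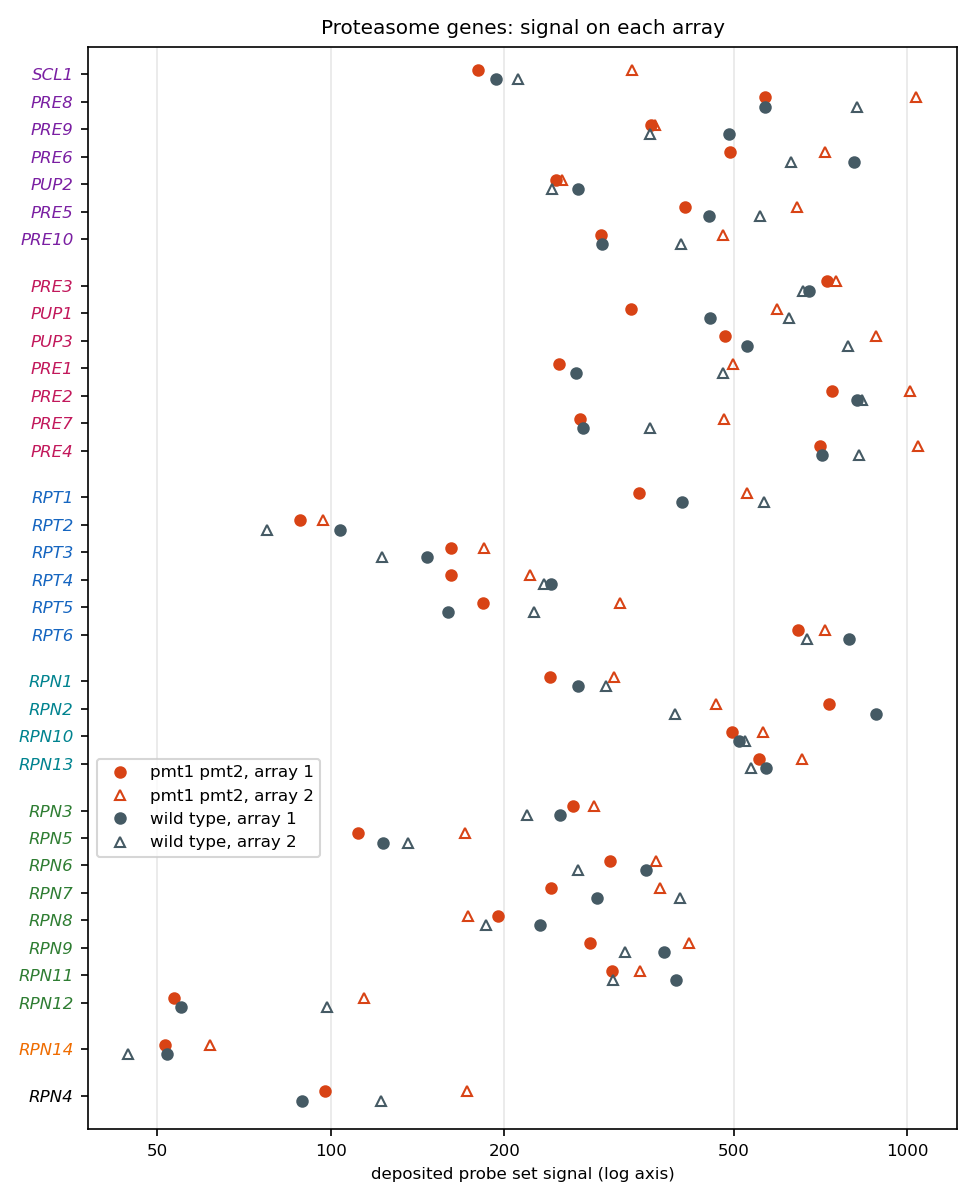
Deposited signal of each proteasome gene on each of the 4 arrays, on a log axis, with the 2 pmt1 pmt2 arrays drawn just above the 2 wild type arrays in every row. Circles are arrays numbered 1 and triangles arrays numbered 2, and values are to be compared along a row. In most core particle genes the triangles of both genotypes lie right of the circles, and pmt1 pmt2 and wild type symbols are interleaved.

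On the probe sets used, the groups did not overlap for 3 genes that were higher in pmt1 pmt2 (PRE3, RPT3 and RPN3). The same held for 1 gene that was lower (RPT4). Among all genes 18.5% were higher without overlap and 14.7% lower without overlap, so neither count exceeded the share over all genes. Within the array numbers, the median change of the 34 was -0.13 on the arrays numbered 1 and 0.22 on those numbered 2, beside -0.15 and 0.21 for all genes. The median of the proteasome genes thus moved with the array medians and lay within 0.021 of the all-gene median in both numbers. The change was above 0 within both numbers in 5 of the 34 genes (RPN4, PRE3, RPT3, RPT5 and RPN3) and below 0 in 5 (PUP1, RPT1, RPT4, RPN7 and RPN8), beside 31.9% and 31% of all genes. The sign differed between the numbers in the other 24 genes and in 37.1% of all genes. Once the all-gene median of each number was subtracted, 13 of the 34 were higher in both numbers, 10 were lower in both and 11 had opposite signs. The shares over all genes were 35.9%, 35.9% and 28.3%. Across the 34 genes the changes within the 2 numbers had a Pearson correlation of 0.55, beside 0.63 over all genes and 0.83 over those with a mean log2 signal of at least 6. Genes are not independent replicates, and genes of 1 number share the same pair of arrays, so these values are descriptions.

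Core and regulatory particle genes had similar medians between the genotypes. The median log2 change was 0.052 for the 14 core genes and 0.0069 for the 18 regulatory genes, a difference of 0.045. Within the arrays numbered 1 the difference was 0.11, and within those numbered 2 it was -0.018, so its sign was not the same in both. It was 0.27 without pmt1 pmt2 array 1 and -0.096 without pmt1 pmt2 array 2. No core gene and no regulatory gene passed limma.

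The particles differed more between the array numbers. Relative to each gene's mean over the 4 arrays, the core median minus the regulatory median was -0.17 on pmt1 pmt2 array 1 and 0.17 on pmt1 pmt2 array 2, and -0.16 on wild type array 1 and 0.13 on wild type array 2. The arrays numbered 2 exceeded those numbered 1 by a median of 0.67 (log2) for core genes in pmt1 pmt2 and 0.26 in wild type. For regulatory genes the same medians were 0.26 in pmt1 pmt2 and -0.14 in wild type, and for all genes they were 0.39 and 0.0099. Core genes thus lay 0.29 and 0.25 above the all-gene median, and regulatory genes lay 0.13 and 0.15 below it. Array 2 was the higher one in both genotypes for 10 of 14 core genes and 7 of 18 regulatory genes, against 47.5% of all genes. The same contrast is the one that the actin control ratios show, at 3.15 and 2.99 on the arrays numbered 1 against 1.32 and 1.38 on those numbered 2. The part of RNA or labelling quality in the contrast between the particles was not tested.

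**Figure D3:**
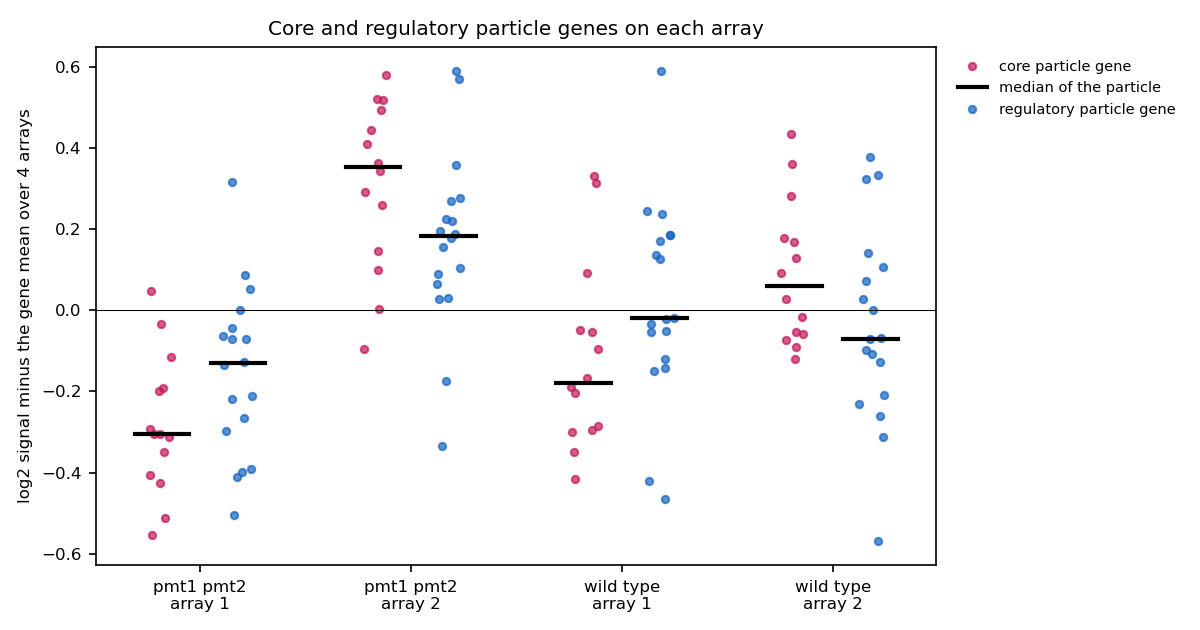
Log2 signal of every core (14) and regulatory particle gene (18) among the 34 on each array, relative to that gene's mean over the 4 arrays. Points are genes and black bars are particle medians. The core median lies below the regulatory median on both arrays numbered 1 and above it on both numbered 2, in pmt1 pmt2 and in wild type alike.

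The largest upward differences between the array numbers among the 34 were in PRE1 and RPN12. PRE1, a beta ring gene, gave 249.0 and 499.3 in pmt1 pmt2, against 266.0 and 479.3 in wild type, so that array 2 was 2.01-fold above array 1 in pmt1 pmt2 and 1.80-fold above it in wild type. RPN12, a lid gene and so of the regulatory particle, gave 53.4 and 114.0 in pmt1 pmt2, against 54.9 and 98.4 in wild type, with array 2 at 2.13-fold and 1.79-fold of array 1. Their genotype ratios were 0.987 and 1.06. PRE1 and RPN12 are named outside the rule for named genes, after their values were seen. In 24 of the 34 genes the mean log2 difference between the array numbers was larger in size than the change with genotype, as in 59.3% of all genes. Across the 34 genes the number differences in pmt1 pmt2 and in wild type, which share no array, had a Pearson correlation of 0.89. Over all genes it was 0.65, and over those with a mean log2 signal of at least 6 it was 0.83.

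**Figure D4:**
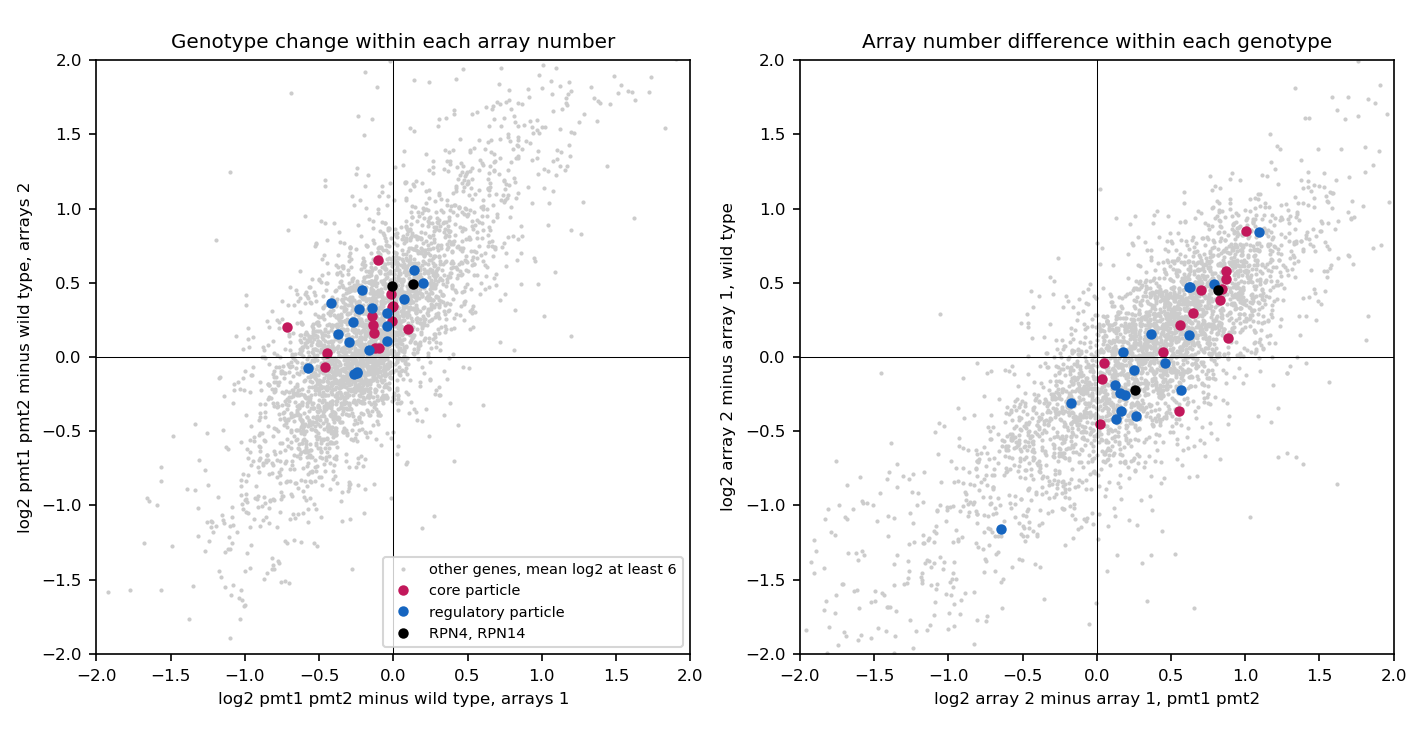
Left, log2 change of pmt1 pmt2 minus wild type within the arrays numbered 1 (x axis) and numbered 2 (y axis). Right, log2 difference of array 2 minus array 1 in pmt1 pmt2 (x axis) and in wild type (y axis). Coloured points are proteasome genes, grey points are other genes with a mean log2 signal of at least 6, of which 72 (left) and 47 (right) lie beyond the axes at 2. The proteasome genes sit close to the middle of the grey cloud on the left and are drawn out along its diagonal on the right (r = 0.89 over the 34 genes).

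The choice of probe set mattered for the 2 members with several. PRE3 had 3 probe sets, all with a higher signal in pmt1 pmt2 than in wild type within both numbers. The probe set used had log2 changes of 0.10 and 0.19 within the numbers, and the others had 0.047 and 0.83, and 0.63 and 0.47. These dimmer probe sets gave 83.5 and 266.8, and 121 and 278, on the pmt1 pmt2 arrays, against 80.8 and 150.4, and 78.2 and 200.6, on the wild type arrays. The groups overlapped on both of them, so the lack of overlap for PRE3 held only on the probe set used. With the mean of all its probe sets the PRE3 log2 change was 0.38 ± 0.49 (SE). RPT5 had 4 probe sets, of which 1 gave at most 5.3 on any array and lay below background throughout. The brightest, which was used, had changes of 0.20 and 0.50 within the numbers. The other 2 had -0.35 and 0.47, and -0.10 and 0.59, so the sign of the RPT5 change on the arrays numbered 1 depended on the probe set. With the mean of all its probe sets the RPT5 log2 change was -0.058.

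Some proteasome genes lie close together on the chromosomes. PRE4 and RPN12 have 1 protein-coding gene between them, as have RPT4 and RPN8, and PRE2 and RPN7 have 4. The members of these pairs had log2 changes of 0.16 and 0.086, of -0.33 and -0.18, and of 0.067 and -0.19. None of these 6 values passed the test.

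Around the proteasome, factors of its assembly, of ubiquitin conjugation and of substrate delivery held no gene that passed limma's test. With the array number as a block only UBC5 passed, beside 3.02% of all genes. Of 15 assembly and accessory factors, 0 passed limma and 1 was higher at an unadjusted p under 0.05, beside 0.389% and 7.18% of all genes. That gene was TMA17, for a stress-linked chaperone of ATPase assembly, at 209.5 and 195.5 in pmt1 pmt2, against 121.2 and 78.5 in wild type, a 2.08-fold ratio (log2 change 1.05 ± 0.38 (SE), adjusted p = 0.615). FUB1, the yeast relative of the proteasome regulator PI31, gave 125.5 and 149.7 in pmt1 pmt2, against 87.4 and 67.9 in wild type. ADD66, for a chaperone of alpha ring assembly, gave 143.1 and 279.5 in pmt1 pmt2, against 109.8 and 112.0 in wild type. These 3 had groups that did not overlap, with pmt1 pmt2 higher. BLM10, for an alternative cap of the core particle, was lower without overlap, at 207.1 and 161.5 in pmt1 pmt2, against 286.3 and 212.7 in wild type. The median of the 15 was 0.10, with 6 genes higher and 1 lower without overlap, beside 18.5% and 14.7% of all genes.

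Of 18 genes for ubiquitin and its conjugation, 0 passed limma and 1 was higher at an unadjusted p under 0.05, beside 0.389% and 7.18% of all genes. UBC11 is counted in the list and its median, but gave at most 1.7, below background on every array. UBC5, for a conjugating enzyme of stressed and stationary cells, gave 239.5 and 409.4 in pmt1 pmt2, against 107.1 and 122.2 in wild type, a 2.74-fold ratio (log2 change 1.45 ± 0.41 (SE), adjusted p = 0.409). Its limma adjusted p was 0.0466 when the array number entered as a block. UBI4, the stress-induced polyubiquitin gene, gave 262.4 and 611.3 in pmt1 pmt2, against 216.9 and 135.7 in wild type (log2 change 1.22 ± 0.52 (SE), adjusted p = 0.731). DOA4, for a ubiquitin hydrolase that recycles ubiquitin, gave 33.2 and 59.8 in pmt1 pmt2, against 22.8 and 29.7 in wild type. Its signal on wild type array 1 lay below the background of 26.2. These 3 were higher without overlap. CDC34, for the conjugating enzyme of the cell cycle ligase SCF, was lower without overlap, at 58.7 and 40.2 in pmt1 pmt2, against 86.4 and 62.6 in wild type. The median of the 18 was 0.089, with 4 genes higher and 2 lower without overlap, beside 18.5% and 14.7% of all genes.

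Of 16 genes for Cdc48, its cofactors and ubiquitin receptors, 0 passed limma and 0 had an unadjusted p under 0.05, beside 0.389% and 7.18% of all genes, and their median was 0.15. NPL4, a Cdc48 cofactor that acts in the export of proteins from the endoplasmic reticulum, gave 77.0 and 93.2 in pmt1 pmt2, against 72.6 and 44.3 in wild type. UBX5, for a Cdc48 adaptor, gave 42.6 and 56.8 in pmt1 pmt2, against 36.3 and 33.7 in wild type. SHP1, for another adaptor, gave 308.9 and 307.9 in pmt1 pmt2, against 434.1 and 394.5 in wild type. NPL4 and UBX5 were higher and SHP1 lower in pmt1 pmt2 without overlap. In the whole list 6 genes were higher without overlap, CDC48 itself among them, and 2 were lower, beside 18.5% and 14.7% of all genes. RAD23, for a receptor that carries substrates to the proteasome, gave 152.9 and 250.7 in pmt1 pmt2, against 237.3 and 317.6 in wild type, with overlap.

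Activators of RPN4 transcription (YAP1, PDR1, PDR3 and HSF1) and factors that help destroy Rpn4 (UBR2 and MUB1) made up the last list. Of its 6 genes, 0 passed limma and 0 had an unadjusted p under 0.05, beside 0.389% and 7.18% of all genes. All 6 log2 changes were above 0, as were 52.5% over all genes, with a median of 0.19. PDR3 gave 72.6 and 120.0 in pmt1 pmt2, against 42.4 and 68.5 in wild type (log2 change 0.79 ± 0.44 (SE), limma adjusted p = 0.890). YAP1 gave 46.1 and 74.7 in pmt1 pmt2, against 43.1 and 44.3 in wild type. These 2 of the 6 were higher without overlap, beside 18.5% of all genes. MUB1 gave 81.2 and 111.9 in pmt1 pmt2, against 78.8 and 82.6 in wild type, and PDR1 gave 161.9 and 201.4, against 162.8 and 162.9 in wild type.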

How the data were processed

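Total RNA was labelled with biotin and hybridised to Affymetrix arrays, 2 for pmt1 pmt2 and 2 for wild type. The deposited values are probe set intensities on a linear scale. GCRMA is named for them per the submitters' processing notes, without a version or settings. Zeros and unequal distributions over the arrays are not typical of GCRMA, which leaves the summary and the scaling between arrays uncertain.

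Of 9335 probe sets, 6504 named 1 gene. The probe set with the highest mean log2 value was kept per gene, which left 5656 genes, all matched by gene ID to R64 locus tags. Zeros were raised to 0.1 and log2 values were used without further normalization. The genotypes were tested with limma 3.58.1 (R 4.3.3) by lmFit and eBayes, two-sided, and p-values were adjusted by Benjamini-Hochberg over the 5656 genes. Background was the highest signal (26.2) among 19 control probe sets against bacterial or mouse RNA. The fit was tested on simulated data with independent noise on each array. That noise did not carry the difference between the array numbers, so the test does not cover it. The number of arrays limits the precision.

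All 34 members were accounted for. The rule for named genes took RPN4, RPN14, up to 4 members of each subcomplex and up to 4 genes of each other list with the smallest p. Members, lists and tests were chosen with earlier results of these data known. ADC17 and TMA17 are 1 gene and were counted once. Promoter and protein sequences were not used here.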

Additional observations from a re-analysis of the deposited data

How the results depend on the processing

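The count of 0 proteasome genes past limma held under quantile normalization, median centring, a minimum mean log2 signal of 6 (which left 33 of the 34, without RPN14), a mean-variance trend, the mean of all probe sets and an offset of 20. It was also 0 without each array in turn, but then 1 group has a single array that is assumed to vary like the other group, and without pmt1 pmt2 array 1 or 2 only 0 and 1 of 5656 genes passed, so this says nothing about stability. The lowest adjusted p of any member over all of these was 0.589, without pmt1 pmt2 array 1, and 0 members had an unadjusted p under 0.05 in any of them. With centring the median log2 change was -0.019 for all 34 genes, -0.0084 for the core and -0.054 for the regulatory particle, beside -0.034 for all genes. The array numbers of the labels do not pair the samples, although deviations of same-numbered arrays correlated at 0.65 over all genes. When the number entered the fit as a replicate block, 171 genes passed in place of 22, and 0 of the 34 members did (lowest adjusted p = 0.563). At limma's unadjusted p under 0.05 with the block there were 0 of the 34, beside 18% of all genes. With the replicate block and median centring, 308 genes passed and again 0 members (lowest adjusted p = 0.253). The median standard error of the members was 0.27 with the block and 0.38 without it. The block put 33 of 34 intervals within 2-fold, beside 3074 of 5656 over all genes, and took UBC5 past the threshold (adjusted p = 0.0466). Over all genes the count was 2 after quantile normalization, 16 after centring, 38 with the minimum of 6 and 15 with the offset. It was 0 and 1 with pmt1 pmt2 array 1 or 2 left out (612 and 278 at limma's unadjusted p under 0.05), and 62 and 44 when wild type array 1 or 2 was.

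Leaving out 1 array moved the medians from -0.18 to 0.26 for all 34 genes, from -0.23 to 0.40 for the core, from -0.13 to 0.13 for the regulatory particle, and from -0.096 to 0.27 for their difference. The all-gene median then moved from -0.14 to 0.24. The PMT1 adjusted p was 0.0508 after centring (log2 change -3.24) and 0.0669 after quantile normalization (-3.19). Without 1 array PMT1 ran from -3.45 to -2.91 and PMT2 from -7.83 to -7.45.

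Of 263 values of named members under alternatives, 25 turned sign and 0 passed the threshold. RPN10 was -0.027 with centring, with or without the block, RPN2 0.0048 after quantile normalization and RPT5 -0.058 with all probe sets. The other turns came from leaving out 1 array, with ranges of -0.094 to 0.72 for RPN4, -0.17 to 0.72 for SCL1, -0.53 to 0.017 for PRE6, -0.44 to 0.014 for PRE9, -0.26 to 0.60 for PRE8, -0.69 to 0.16 for PUP1, -0.21 to 0.62 for PRE7 and -0.12 to 0.44 for PRE4. In the regulatory particle they were -0.045 to 0.74 for RPT5, -0.48 to 0.14 for RPT1, -0.24 to 0.13 for RPN1, -0.055 to 0.12 for RPN10, -0.60 to 0.56 for RPN2, -0.51 to 0.12 for RPN7 and -0.075 to 0.32 for RPN6. The cause of these moves was not tested.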
